A study of Mus musculus with 4 samples.

Results

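Dividing myeloid cells of the mouse ovary were picked out of single-cell transcriptomes of CD45+CD11b+ cells, cells sorted for the pan-leukocyte protein CD45 and the integrin chain CD11b. A cell was called cycling when its raw UMI counts (unique molecular identifiers, each marking 1 captured transcript) of Mki67 and Top2a added up to at least 3. Of 6281 kept cells 383 met this rule, or 6.10% (95% Wilson interval 5.53 to 6.72%). The 383 comprised 101 of 2181 kept cells from 3-month-old mice and 282 of 4100 from 15-month-old mice. Like every Wilson interval below, that of the share covers counting error only. It leaves out the spread between pools of mice, whose shares ran from 3.52 to 8.12%. A kept cell had at least 500 genes, at least 1000 UMIs, at most 10% mitochondrial UMIs, and a leading hashtag with at least 10 counts and at least 3 times the next one.

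Both age groups were virgin wild-type C57BL/6J females with no treatment named, and each age consisted of 3 pools marked with hashtags, antibodies carrying a readable barcode. The series description gives 2 mice to every pool. The protocol instead gives harvest at 2 to 3 and at 14 to 17 months, with 6 young animals in 3 pools and 5 older animals in 3 pools, 1 of those pools being a single unnamed mouse. The pools of an age were joined before 1 sort and 1 library, so age and library cannot be told apart, and the p-values measure spread between pools only. The series title names the aging of ovarian macrophage populations as the subject.

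A dividing cell copies its DNA in S phase and separates the copies in mitosis, and most of the genes for these steps are transcribed only while they are needed. Mki67 encodes the proliferation marker Ki-67, which coats mitotic chromosomes, and Top2a encodes the topoisomerase that untangles DNA before chromosomes part. Tissue macrophages can renew themselves by local division. Conventional dendritic cells arise from precursors that still divide after they reach a tissue, whereas neutrophils in tissue no longer divide.

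The 2 genes of the rule lie on chromosome 7 (Mki67, ENSMUSG00000031004, 135689784 to 135716361, minus strand) and chromosome 11 (Top2a, ENSMUSG00000020914, 98992943 to 99024189, minus strand) in GENCODE M21 on GRCm38. Their promoters are shown with those of Ube2c and Ccnb2, which act in mitosis, and of Mcm5, a subunit of the replication helicase, because genes of these groups were high together in the cycling cells. Each sequence is the 250 bases before the RefSeq start (GRCm38.p6), 5′ to 3′ on the gene's strand. Capitals mark every match, on either strand (read there as the reverse complement), to CCAAT, the letters bound by NF-Y, to TTTGAA, the cell cycle homology element of late cell cycle genes, and to the E2F-type letters TTTGGCGC and TTTCCCGC.
Mki67, chr7:135716380-135716629, minus strand: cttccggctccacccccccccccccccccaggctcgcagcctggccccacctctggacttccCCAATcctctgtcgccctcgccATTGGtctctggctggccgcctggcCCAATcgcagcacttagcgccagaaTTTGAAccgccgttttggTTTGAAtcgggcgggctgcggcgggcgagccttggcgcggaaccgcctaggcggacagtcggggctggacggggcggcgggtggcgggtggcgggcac
Top2a, chr11:99024190-99024439, minus strand: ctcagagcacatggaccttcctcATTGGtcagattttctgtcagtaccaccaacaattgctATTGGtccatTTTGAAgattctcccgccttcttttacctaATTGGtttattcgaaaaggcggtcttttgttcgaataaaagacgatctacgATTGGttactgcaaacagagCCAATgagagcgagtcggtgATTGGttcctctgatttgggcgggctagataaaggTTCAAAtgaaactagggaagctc
Ube2c, chr2:164769679-164769928, plus strand: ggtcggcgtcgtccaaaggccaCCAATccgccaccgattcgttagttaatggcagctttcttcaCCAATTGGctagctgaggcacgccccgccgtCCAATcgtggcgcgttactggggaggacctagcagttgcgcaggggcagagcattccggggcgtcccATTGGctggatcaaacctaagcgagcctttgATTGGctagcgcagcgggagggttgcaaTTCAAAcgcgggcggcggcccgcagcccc
Ccnb2, chr9:70421555-70421804, minus strand: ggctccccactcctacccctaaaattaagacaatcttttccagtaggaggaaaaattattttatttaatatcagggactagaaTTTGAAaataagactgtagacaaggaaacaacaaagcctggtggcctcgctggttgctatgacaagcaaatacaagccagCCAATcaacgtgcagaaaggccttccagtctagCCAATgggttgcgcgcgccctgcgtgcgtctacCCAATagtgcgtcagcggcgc
Mcm5, chr8:75109259-75109508, plus strand: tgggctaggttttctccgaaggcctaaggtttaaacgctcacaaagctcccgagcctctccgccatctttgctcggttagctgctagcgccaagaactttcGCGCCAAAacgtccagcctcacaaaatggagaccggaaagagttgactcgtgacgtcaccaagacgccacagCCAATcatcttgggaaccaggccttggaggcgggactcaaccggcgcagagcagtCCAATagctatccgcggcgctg
The Top2a window held 6 CCAAT matches and 2 TTTGAA matches. The Ube2c window also held 6 CCAAT matches, 2 of which overlap in CCAATTGG, and the Mki67 and Ccnb2 windows held 3 each. The Mcm5 window held 2 CCAAT matches and 1 TTTGGCGC match. Among the 42 of 51 genes of the G2 and mitosis list with a promoter in the table, 31 (73.8%) had a CCAAT match and 21 (50%) had at least 2. Of 27025 promoters (the first listed start of each gene) 34.5% had a CCAAT match and 10.5% had at least 2. TTTGAA was found in 11 of the 42 (26.2%) and in 16.3% of all promoters, and CCAAT with TTTGAA in 10 (23.8%) and 5.73%. TTTGGCGC was found in 0.437% and TTTCCCGC in 0.929% of all promoters, and each in 0 of the 42. For the DNA replication list only 29 of 37 genes had a promoter in the table, too few for a share. A match describes letters and does not show that a factor binds there.

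The cells that met the rule also carried the other genes given as marks of division. Stmn1, which destabilises microtubules, had a UMI in 346 of 383 cycling cells (90.3%) and in 19.4% of 5898 non-cycling cells. Birc5, the survivin subunit of the chromosomal passenger complex, had one in 278 (72.6%) against 1.97%. Stmn1 and Birc5 were not part of the rule, but the cells were chosen by genes that move with them, so these values describe the cells and were not tested.

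The rule drew a line through a gradient. The 62 cells with 3 UMIs of Mki67 and Top2a, just inside it, had a Birc5 UMI in 27.4% and a G2 and mitosis list summing to 869 CPM, that is UMIs scaled to a fixed library total. The 151 cells with 2 UMIs, just outside it, had Birc5 in 8.61% and a sum of 544 CPM. The 219 cells with 10 or more UMIs had Birc5 in 97.3% and a sum of 6657 CPM. Cycling cells were deep, with a median of 18657 UMIs against 7294.5 in non-cycling cells. As a background, 534 cells with the marker genes of neutrophils, at a median of 2134.5 UMIs, held 6 cells with at least 1 Mki67 or Top2a UMI (1.12%) and 0 with 3 or more. Barcodes that both libraries shared numbered 3, none of them cycling.

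Some S-phase cells were outside the rule. With every cell thinned to 3000 UMIs, the DNA replication and S phase list reached 7 UMIs in 195 of 376 cycling cells and in 130 of 4853 non-cycling cells, of which 78 were sorted to C1qa. Thinning left out 375 cells of the 3-month library and 677 of the 15-month library, 3 and 4 of them cycling.

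The cycling cells were then sorted by 8 lineage genes, a cell going to the gene with at least 2 UMIs and at least 3 times every other. C1qa, a complement subunit made by macrophages, took 226 of the 383 (59.0%, Wilson interval 54.0 to 63.8%). Cd209a, a lectin of conventional type 2 dendritic cells (cDC2), took 60 (15.7%), and Xcr1, the chemokine receptor of conventional type 1 dendritic cells (cDC1), took 37 (9.66%). Ncr1, an activating receptor of natural killer (NK) cells, took 6, Dcn, a matrix proteoglycan of stroma, took 4, and Ly6c2 of monocytes and Cd79a of B cells took 2 each. Another 19 cells carried more than 1 of these genes and 27 carried none at 2 UMIs.

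**Figure D1:**
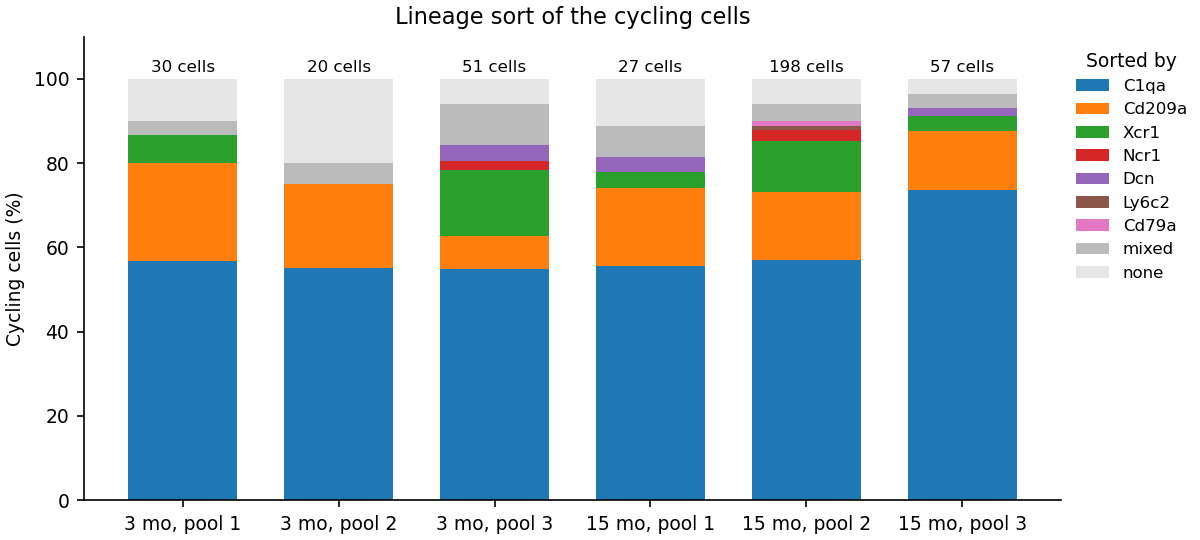
Sort of the cycling cells in each of the 6 hashtag pools, as a percentage of that pool's cycling cells (number above each bar); colours are the lineage gene, and grey marks cells with several or none of the genes. C1qa-sorted cells were the largest part of every pool, from 54.9 to 73.7%.

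C1qa-sorted cells were 56.7, 55.0 and 54.9% of the cycling cells in the 3-month pools and 55.6, 57.1 and 73.7% in the 15-month pools. The ages overlapped, with means of 55.5 ± 0.992% and 62.1 ± 10.1% (SD, n = 3 pools each, exact permutation test, two-sided p = 0.2, Benjamini-Hochberg 1 over 10 sorts). The smallest p that 3 pools against 3 allow is 0.1. Of all kept cells the C1qa sort took 36.9 ± 5.17% in the younger and 35.9 ± 7.92% in the older pools.

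The sorts carried the markers of their names. In the C1qa sort all 6 macrophage markers were seen, with C1qb in 226 of 226 cells, Csf1r, the receptor for the macrophage growth factor CSF1, in 94.7%, and the mannose receptor Mrc1 in 87.2%. The Cd209a sort had 5 of 5 cDC2 markers, with H2-DMb2, a class II peptide-loading chaperone, in 83.3% of its 60 cells and the growth factor receptor Flt3 in 61.7%. H2-DMb2 and Flt3 were also in 64.9 and 81.1% of the Xcr1 sort. Clec10a, another cDC2 marker, was in 71.7% of the Cd209a, 2.70% of the Xcr1 and 40.3% of the C1qa sort. The Xcr1 sort had 6 of 6 cDC1 markers, with the transcription factor Irf8 in 37 of 37 cells and the dead-cell receptor Clec9a in 94.6%. Irf8 was also in 83.6% of the C1qa sort, where Clec9a was in 3.98%. The cDC1 marker Cadm1 was in 51.4% of the Xcr1 and 58.0% of the C1qa sort. These 3 sorts are called macrophage-like, cDC2-like and cDC1-like below. Among the 6 NK-like cells all 6 NK markers were seen, with Klrb1c, Eomes and the granule protease Gzma (12535 CPM) in 4 of 6 cells each. The 4 Dcn-sorted cells had all 6 stroma markers, with Col1a1 and Col3a1 in 4 of 4. They also showed all 6 macrophage markers in at least 1 cell and granulosa and epithelial genes, so they stay unnamed. Although the cells were sorted for CD45 and CD11b, 183 kept cells went to Dcn. T cells, sorted by Cd3e, gave 0 cycling cells of 21, which allows a share of up to 14.3%.

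**Figure D2:**
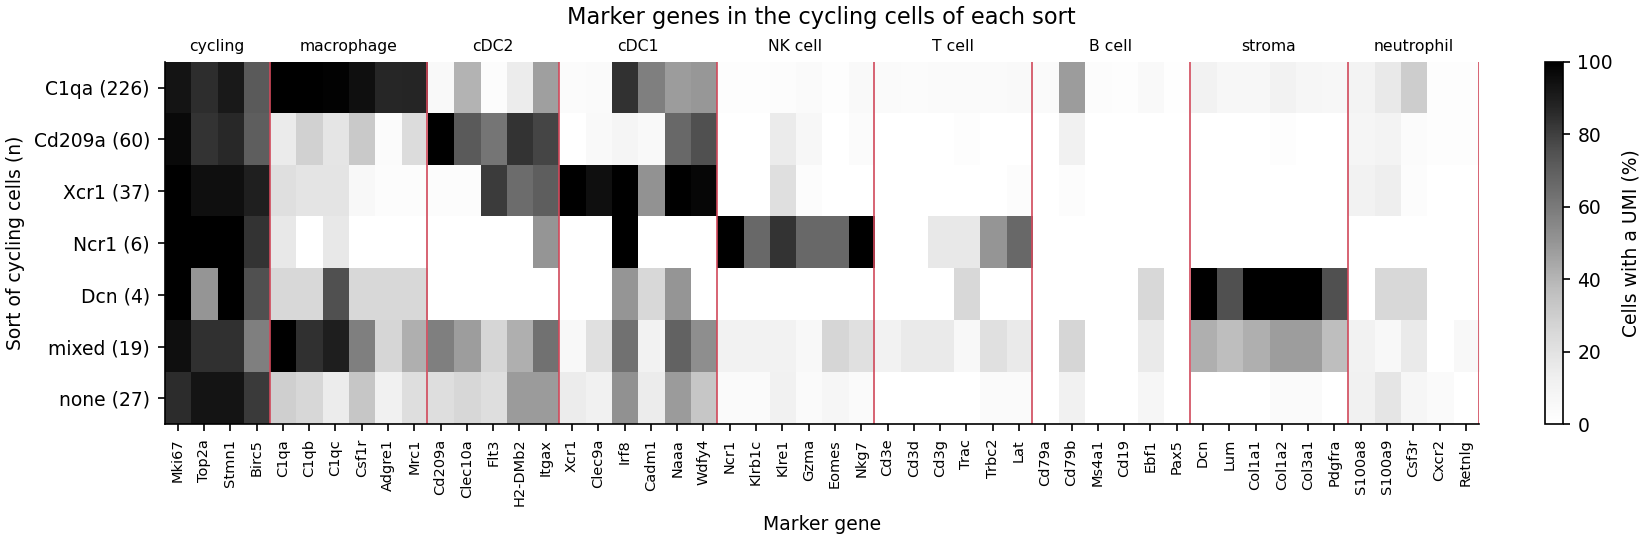
Percentage of cycling cells with at least 1 UMI (grey scale) for marker genes (columns, grouped by cell type) in each sort (rows, number of cells in brackets). Each of the C1qa, Cd209a, Xcr1, Ncr1 and Dcn rows is dark over its own group, and the mixed row is dark over macrophage genes and grey over stroma and dendritic cell genes.

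The genes that set each sort apart from the other cycling cells named the same lineages, with exceptions. Leading in the macrophage-like cells were Pf4, a platelet-factor chemokine also made by macrophages (1120 against 29.5 CPM), the monocyte attractant Ccl7 (307 against 11.2 CPM), C1qc, C1qa, C1qb and Fcrls. In the cDC2-like cells they were Cd209a (1072 against 30.0 CPM), the lectin-like receptor Klrd1, Tnfsf9, the ligand of the 4-1BB receptor (1016 against 96.2 CPM), H2-Oa, Napsa and H2-DMb2. In the cDC1-like cells they were Xcr1, Ifi205, an interferon-induced gene (308 against 11.4 CPM), Naaa and Cd24a, together with Ovgp1, an oviduct glycoprotein gene seen in only 5.41% of the cells, and the haemoglobin gene Hbb-bt, seen in 10.8%. Over all cells of a sort the 4 haemoglobin genes summed to 5440 CPM in the cDC1-like, 4748 in the cDC2-like and 97.7 in the macrophage-like cycling cells. These sums were uneven between pools. In the 2 pools with at least 5 cycling cDC1-like cells the sum was 7.61 and 37835 CPM. In the 4 such pools of cDC2-like cells it was only 20.1 to 309 CPM. The part of red-cell RNA in these values was not tested.

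The cells without a clear sort were mixed in make-up. Of the 19 cells with several lineage genes, 10 carried C1qa with Cd209a and 6 carried C1qa with Dcn. Their leading genes were Hsd3b1, a steroid-making enzyme (309 against 15.3 CPM), and Timp3, each in only 15.8% of these cells. Next came Col1a2 (47.4%), Tagln (26.3%), Sparcl1 (42.1%) and Tsc22d1 (57.9%). Of the 27 cells with no lineage gene at 2 UMIs, 5 had cDC2 markers foremost, 4 cDC1, 3 macrophage and 3 endothelial, and 5 matched no marker list. They were led by the bone-resorption protease gene Ctsk (1214 against 3.73 CPM), which 11.1% of them carried. Next came Mmp9 (in 3.70% of them), Ctla2a (14.8%), Inha (18.5%), Acp5 (29.6%) and Chchd10 (25.9%). More than 1 cell can share a barcode. In the 3-month library 10 of 101 cycling cells and 155 of 2181 kept cells were among the barcodes with the highest 5% of doublet scores, and in the 15-month library 34 of 282 and 212 of 4100 were.

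The share of cells in cycle was compared between ages over all kept cells and then within each sort. Over all kept cells it was 4.14, 4.18 and 5.22% in the 3-month pools and 3.52, 8.12 and 6.36% in the 15-month pools. The ages overlapped, since the lowest pool of all was a 15-month one. The means were 4.51 ± 0.614% and 6.00 ± 2.32% (SD, n = 3 pools each), a gap that did not exceed the spread between pools (exact permutation test, two-sided p = 0.4). The second 15-month pool supplied 198 of the 282 cycling cells of its age, so sums over cells follow that pool.

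Among macrophage-like cells (C1qa sort) 226 of 2262 were cycling (9.99%). The share was 7.59, 5.79 and 7.16% in the 3-month pools and 6.76, 13.5 and 10.5% in the 15-month pools. A 15-month pool lay inside the 3-month range and the other 2 lay above it. The means were 6.85 ± 0.940% and 10.3 ± 3.39% (SD, n = 3 pools each, exact permutation test, two-sided p = 0.3, Benjamini-Hochberg 0.3 over 3 sorts).

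In both dendritic sorts the share of cycling cells did not overlap between ages. Within a pool it was above the macrophage-like share in 5 of 6 pools for cDC2-like and in 4 of 6 for cDC1-like cells, the exceptions all at 3 months, and this difference between sorts was not tested. Among cDC2-like cells 60 of 374 were cycling (16.0%). By pool these were 7 of 37, 4 of 40 and 4 of 95 at 3 months (18.9, 10 and 4.21%) and 5 of 25, 32 of 150 and 8 of 27 at 15 months (20, 21.3 and 29.6%). All 15-month pools were above all 3-month pools, although the highest young and lowest old pool were close, and the Wilson intervals of those 2 overlap (9.48 to 34.2% and 8.86 to 39.1%). The means were 11 ± 7.41% and 23.7 ± 5.22% (SD, n = 3 pools each, exact permutation test, two-sided p = 0.1, the smallest possible, Benjamini-Hochberg 0.15). The ages overlapped when the rule asked for 5 UMIs of Mki67 and Top2a, with a gap of 5.25 in place of 12.6 percentage points, and when a lineage gene counted from 1 UMI, with a gap of 11.3 points (exact permutation test, two-sided p = 0.2 for each).

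Among cDC1-like cells 37 of 154 were cycling (24.0%, Wilson interval 18 to 31.4%). By pool these were 2 of 27, 0 of 11 and 8 of 43 at 3 months and 1 of 2, 24 of 63 and 2 of 8 at 15 months. The shares were 7.41, 0 and 18.6% against 50, 38.1 and 25%, again with no overlap, but 2 of the older pools held at most 8 such cells. The 0 of 11 allows a share of up to 27.3%. The means were 8.67 ± 9.37% and 37.7 ± 12.5% (SD, n = 3 pools each, exact permutation test, two-sided p = 0.1, Benjamini-Hochberg 0.15). Sorting by whole marker panels in place of single genes reduced this gap from 29.0 to 15.4 percentage points. The dendritic sorts' part of all kept cells averaged less at 15 months, at 1.25 ± 1.20 against 3.47 ± 1.07% for cDC1-like and 4.14 ± 1.75 against 7.73 ± 2.37% for cDC2-like cells. Their part of the cycling cells averaged 6.44 ± 4.92 against 7.45 ± 7.87% and 16.2 ± 2.24 against 17.1 ± 8.15%, and the ages overlapped in all 4 of these shares. Whether the gap between ages differed among the sorts could not be shown: the gap was 25.6 points larger in cDC1-like than in macrophage-like cells (exact permutation test, two-sided p = 0.1, Benjamini-Hochberg 0.2 over 3 pairs) and 9.19 points larger in cDC2-like than in macrophage-like cells (p = 0.2, Benjamini-Hochberg 0.2).

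**Figure D3:**
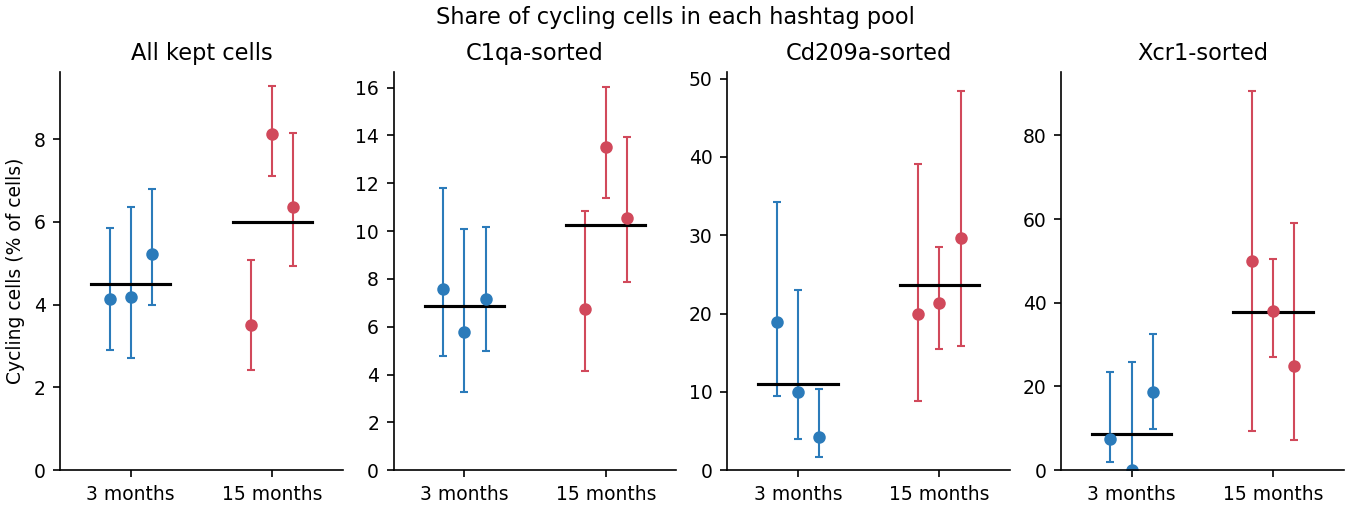
Cycling cells as a percentage of all kept cells and of the C1qa, Cd209a and Xcr1 sorts, 1 point per hashtag pool with its 95% Wilson interval and the mean of 3 pools as a black line; each panel has its own axis from 0. The ages overlap in the first 2 panels and do not in the Cd209a and Xcr1 panels, where intervals are wide.

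The shares were also taken on cells thinned to 3000 UMIs, where a cell counted as cycling with at least 1 Mki67 or Top2a UMI. Over all cells the means were then 8.98 ± 1.72% at 3 months and 10.1 ± 1.60% at 15 months. In macrophage-like cells they were 11.8 ± 3.34% and 13.1 ± 1.29%, a gap of 1.32 points in place of 3.42. In cDC2-like cells they were 19.5 ± 5.01% and 30.5 ± 1.58%, and in cDC1-like cells 10.9 ± 4.71% and 39.3 ± 12.9%, both still without overlap (SD, n = 3 pools each, exact permutation test, two-sided p = 0.1). Median depth of the cDC1-like cycling cells was 16116 UMIs at 3 months and 25301 at 15 months.

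By the rule the remaining lineages had few cycling cells, among them 4 of 183 Dcn-sorted cells (2.19%). NK-like cells had 6 cycling of 175 (3.43%), 5 of them in a single 15-month pool. Monocytes sorted by Ly6c2, the blood-derived precursors of macrophages, had 2 of 442 (0.452%, Wilson interval 0.124 to 1.63%), and B cells sorted by Cd79a had 2 of 242 (0.826%). Of the 2 Ly6c2-sorted cells, both had Ccr2, a chemokine receptor of monocytes, and Csf1r, and each of the 6 T cell markers was seen in 1 of the 2. The 2 Cd79a-sorted cells had all 6 B cell markers, at 2202 CPM in sum, and Birc5 in 0 of 2. Their granulosa genes summed to 4300 CPM, with Inha in 1 of the 2. Whether these barcodes held more than 1 cell was not tested.

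Macrophage-like cycling cells were next set beside non-cycling cells of the same sort and pool. The rule itself made this contrast, so what follows is a description with no test, in CPM of all UMIs. Of 17822 genes with a UMI, 8.87% were higher and 4.90% lower in the cycling cells of all 6 pools, with a median log2 ratio of 0. Of the 3007 genes at 50 CPM or more, 854 were higher and 298 lower in all 6. All 37 genes of the DNA replication and S phase list were higher in every pool, with a median log2 ratio of 2.33. The highest of these were Atad2, a chromatin ATPase (218 ± 45.1 against 30.4 ± 6.53 CPM, SD over 6 pools), Tk1, the thymidine kinase of the salvage pathway (159 ± 64.0 against 9.24 ± 4.57 CPM), the histone chaperone Nasp, the helicase subunit Mcm3 (152 ± 17.1 against 37.8 ± 3.98 CPM), Dut and Slbp. The replication clamp Pcna averaged 128 ± 32.5 against 39.6 ± 7.77 CPM.

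Of the 51 genes for G2 and mitosis, 50 were higher in every pool, with a median log2 ratio of 4.06. Birc5 was 271, 301 and 405 CPM in the cycling cells of the 3-month pools and 337, 294 and 301 CPM in those of the 15-month pools. In non-cycling cells it ran from 1.95 to 7.23 CPM. The next by level were Smc4, a condensin subunit (316 ± 53.4 against 43.0 ± 4.94 CPM), Ube2c, the ubiquitin-conjugating enzyme of the anaphase complex (293 ± 63.5 against 4.88 ± 1.03 CPM), Prc1, which bundles spindle microtubules, Cdca8, a partner of Birc5, and Cks2. The exception was Pttg1, securin, at 36.4 against 42.0 CPM and higher in 2 of 6 pools.

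All 21 genes of chromatin and tubulin were higher in every pool (median log2 ratio 2.49). The largest ratio of any gene was that of the linker histone gene Hist1h1b, at 777 ± 144 against 9.77 ± 5.82 CPM (log2 6.30, range 5.20 to 7.23 over pools). Library capture used poly-A tails, which replication histone messages mostly lack, so their levels cannot be set against other genes. Stmn1 was 749, 484 and 1104 CPM in the 3-month cycling cells and 759, 821 and 896 CPM in the 15-month ones, all above the 46.4 to 103 CPM of non-cycling cells. The histone variant gene H2afz had the highest level (2186 ± 370 against 794 ± 78.3 CPM), followed by Hmgb2, Hmgb1 and Tubb5. By the rule for named genes, the other genes with the largest ratios were Hmmr (log2 6.10), Cenpf (5.73), Hist1h3c (5.72), Mki67 (5.62), Nusap1 and Prc1 (both 5.60), Hist1h2ae (5.52), Pclaf (5.51), Top2a (5.41), Hist1h2ap and Kif11 (both 5.37), Esco2 (5.36), Rrm2 (5.33), Hist1h1a and Ccna2 (both 5.28), Pbk (5.03) and Tpx2 (5.01).

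**Figure D4:**
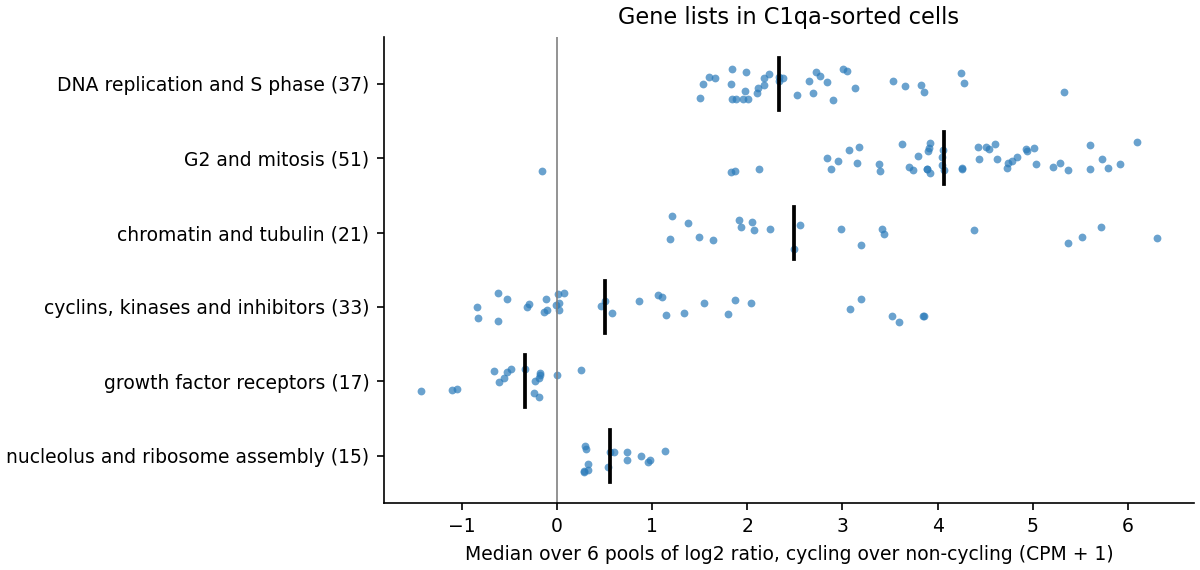
Each point is a gene of a fixed list (size in brackets), placed at the median over 6 pools of its log2 ratio, cycling over non-cycling C1qa-sorted cells, on CPM + 1; black lines are list medians. The replication, mitosis and chromatin lists lie to the right of 0 (medians 2.33, 4.06 and 2.49) except Pttg1, and the growth factor receptors lie mostly to its left (median -0.34).

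Of 33 cyclins, kinases and inhibitors, 14 were higher and 3 lower in every pool (median log2 ratio 0.51). Of all 17822 genes with a UMI, 8.87% were higher and 4.9% lower in every pool. Among all 3007 genes at 50 CPM or more, 854 were higher and 298 lower. The 3 lower genes of 33 are too few to set the list apart. Cdk4, the kinase of G1, was 170 ± 36.8 against 80.5 ± 14.5 CPM. The inhibitors Cdkn2c (54.9 ± 22.2 against 15.3 ± 4.12 CPM) and Cdkn2d (59.8 ± 14.0 against 19.5 ± 3.84 CPM) were also higher in every pool. The antiproliferative genes Btg2 (638 ± 279 against 1086 ± 245 CPM) and Btg1 (395 ± 80.0 against 647 ± 68.3 CPM) and the cyclin gene Ccnd2 (53.3 against 91.5 CPM) were the 3 that were lower in every pool. Cdkn1a, the p53 target p21, was 327 ± 159 against 376 ± 151 CPM and higher in 2 of 6 pools. Of 15 genes for the nucleolus and ribosome assembly, 10 were higher in every pool (median log2 ratio 0.55), led by Npm1 (1220 ± 368 against 798 ± 112 CPM) and Ncl (853 ± 176 against 539 ± 34.9 CPM).

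Of 17 growth factor receptors 0 were higher in every pool and 2 were lower, Csf1r and Csf3r (median log2 ratio -0.34). Of all 17822 genes with a UMI, 8.87% were higher and 4.9% lower in every pool. Among the 3007 genes at 50 CPM or more, 854 were higher and 298 lower. The 2 lower genes of 17 are too few to set the list apart. Csf1r was 232, 227 and 321 CPM in the 3-month cycling cells and 403, 480 and 376 CPM in the 15-month ones. In the non-cycling cells of the same pools it was 422, 403 and 504 CPM, and 530, 539 and 449 CPM. The class II gene H2-Aa was also lower in every pool, at 4106 ± 1038 against 6149 ± 849 CPM.

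The genes with the lowest ratios in cycling macrophage-like cells were Slpi, a protease inhibitor (31.3 ± 66.6 against 356 ± 443 CPM), the haemoglobin genes Hba-a1 and Hbb-bt, the complement gene C4b (8.05 ± 8.24 against 59.0 ± 65.3 CPM), Cd5l, a scavenger protein of tissue macrophages (7.56 ± 9.28 against 50.9 ± 76.9 CPM), the chemokine genes Ccl24 and Cxcl9, Spp1, Cyp11a1 and Id3. Spp1, osteopontin, was 38.3, 571 and 79.7 CPM in the cycling cells of the 3-month pools against 1923, 3100 and 255 CPM in the non-cycling ones. At 15 months it was 190, 237 and 126 CPM against 1437, 827 and 174 CPM. It was lower in the cycling cells of every pool, by the least in the third pool of each age. Cyp11a1, which starts steroid synthesis in theca and luteal cells, was 23.4 ± 6.47 against 99 ± 56.3 CPM. Median depth was 20384.5 UMIs in cycling and 9881 in non-cycling macrophage-like cells. Erythroid genes summed to 11.6 to 424 CPM and 22.9 to 12454 CPM, and theca or luteal genes to 21.9 to 48.1 CPM and 42.8 to 336 CPM, over the pools of cycling and non-cycling cells in that order, and their part in the low ratios was not tested.

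The dendritic sorts showed the same groups of cell cycle genes, over fewer pools. In the 4 pools with at least 5 cycling cDC2-like cells, 26 of 37 replication genes, 39 of 51 mitosis genes and 21 of 21 chromatin genes were higher in every pool. So were 6.90% of 12456 genes with a UMI, and 480 of the 2781 genes at 50 CPM or more. Birc5 averaged 369 ± 109 CPM in the cycling and 1.45 ± 2.90 CPM in the non-cycling cells. Among the lowest were the chemokine gene Ccl5 (24.2 ± 26.9 against 168 ± 131 CPM) and Nupr1, a stress-response gene (17.2 ± 27.8 against 76.4 ± 44.2 CPM). Only 2 pools, 1 of each age, had at least 5 cycling cDC1-like cells. In both, 34 of 37 replication genes, 46 of 51 mitosis genes and 21 of 21 chromatin genes were higher, where 23.2% of 12481 genes were. Of the 2697 genes at 50 CPM or more, 1109 were higher and 724 lower in both pools. Of the 4 markers of mature dendritic cells, 3 were lower in the cycling cells of both pools and 1 had no UMI (median log2 ratio -3.34 against 0.10 for all genes), where 20.8% of all genes were lower. Among the genes with low ratios, the chemokine gene Ccl22 was at 0 in the cycling and 91.3 ± 0.439 CPM in the non-cycling cells, the lymph node homing receptor Ccr7 at 0.761 ± 1.08 and 94.7 ± 43.0 CPM, and the interleukin-12 gene Il12b at 7.61 ± 10.8 and 149 ± 77.4 CPM (SD, n = 2 pools). Ccl17, another chemokine of mature dendritic cells, was 10.8 ± 4.09 against 124 ± 90.4 CPM.

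Within the macrophage-like sort, cells thinned to 3000 UMIs were split by whether they held a UMI of a state gene. Only the state gene was read after thinning. The 221 cycling cells were those of the rule on raw counts, so the cycling call still depended on depth. Of cells with Gdf15, a stress-induced cytokine gene, 81 of 507 were cycling (16.0%), and of those without it 140 of 1580 (8.86%), with the higher share on the Gdf15 side in 5 of 6 pools. Of cells with Csf1r 9.55% were cycling and of those without it 13.2%, the lower share on the Csf1r side in 5 of 6 pools. With and without Cdkn1a the shares were 11.4 and 9.98%, higher with it in 3 of 6 pools. Lyve1, a hyaluronan receptor of macrophages near vessels, had a UMI in only 14 cells, of which 1 was cycling. With and without the other state genes the shares were 14.8 and 10.3% for Folr2, and 8.35 and 11.1% for Spp1. They were 9.60 and 11.2% for Ccr2, 11.9 and 9.82% for Fabp5, and 10.6 and 10.3% for H2-Aa.

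Phase was described by the share of macrophage-like cycling cells with more G2 and mitosis than S-phase UMIs after thinning. It was 37.5, 45.5 and 46.2% in the 3-month pools and 60.0, 54.1 and 57.1% in the 15-month pools. All older pools were above all younger ones, with means of 43.0 ± 4.81% and 57.1 ± 2.97% (SD, n = 3 pools each, exact permutation test, two-sided p = 0.1, the smallest possible). The mean S-phase count (9.41 ± 1.37 and 9 ± 0.407 UMIs a cell) and the mean G2 and mitosis count (13.6 ± 3.67 and 14.8 ± 1.46) overlapped between ages. Over all cycling cells the share overlapped too (47.8 ± 8.26% and 53.7 ± 2.21%, exact permutation test, two-sided p = 0.4). The p-values of this paragraph are unadjusted. The 2 lists differ in size, at 51 and 37 genes. The rule on Mki67 and Top2a also left out 78 macrophage-like cells with at least 7 S-phase UMIs. The share therefore describes the chosen cells and does not measure how cells divide between phases.

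Age was then compared gene by gene in cycling cells, with UMI counts summed by pool. The pools held 20 to 198 cycling cells and 444567 to 4617749 UMIs. In all cycling cells 0 of 6970 genes (0%) passed the quasi-likelihood test of edgeR at an adjusted p of 0.05, with 840 at an unadjusted p under 0.05, and DESeq2 called 27. Testing every gene with a UMI gave 188 calls, and leaving out the third 3-month pool gave 12. The pools of the ages did not overlap for 18.2% of the genes. No list member passed the test. The median log2 ratio, 15 over 3 months, was -0.02 for all genes. It was -0.18 for DNA replication, where 30 of 37 genes were negative and 11 had an unadjusted p under 0.05, and -0.10 for G2 and mitosis, where 30 of 49 were negative. Chromatin and tubulin had a median of -0.17 (15 of 21 negative), cyclins, kinases and inhibitors -0.15 (17 of 28 negative), and the nucleolus and ribosome assembly -0.35 (15 of 15 negative), while growth factor receptors had 0.12 (4 of 12 negative). Cdkn1a was 364, 419 and 506 CPM at 3 months and 262, 287 and 265 CPM at 15 months, on library sizes scaled by TMM. The ages did not overlap, at a log2 ratio of -0.66 ± 0.15 (SE) that missed the test (edgeR adjusted p = 0.211).

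With the lineage held fixed, 5 of 5011 genes passed the test in cycling macrophage-like cells (0.0998%), all of them lower at 15 months. The pools held 11 to 113 such cells and 258253 to 2870628 UMIs, and 556 genes had an unadjusted p under 0.05. Leaving out the third 3-month pool raised the count to 26, and leaving out the first 3-month or the third 15-month pool lowered it to 3. Mgl2 (ENSMUSG00000040950, chromosome 11, 70130329 to 70137550), a galactose-binding lectin of macrophages and dendritic cells, was 394, 466 and 501 CPM at 3 months and 73.9, 141 and 95.8 CPM at 15 months. It fell by 2.07 on the log2 scale (SE 0.24, edgeR adjusted p = 0.0098). Tmsb10 (ENSMUSG00000079523, chromosome 6, 72957347 to 72958748), thymosin beta 10, which binds actin monomers, was 1088, 1646 and 1184 CPM against 436, 531 and 426 CPM. It fell by 1.49 on the log2 scale (SE 0.20, edgeR adjusted p = 0.026). Mgl2 missed the threshold in 4 of 18 alternatives (highest edgeR adjusted p 0.158). These were leaving out the third 15-month pool, a cycling rule of 2 or of 5 UMIs, and removing the highest 5% of doublet scores. Tmsb10 missed the threshold in 6 of 18 (highest 0.276), among them leaving out the first 3-month pool or any 15-month pool. The others were a lineage marker at 1 UMI and a mean of at least 50 CPM.

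**Figure D5:**
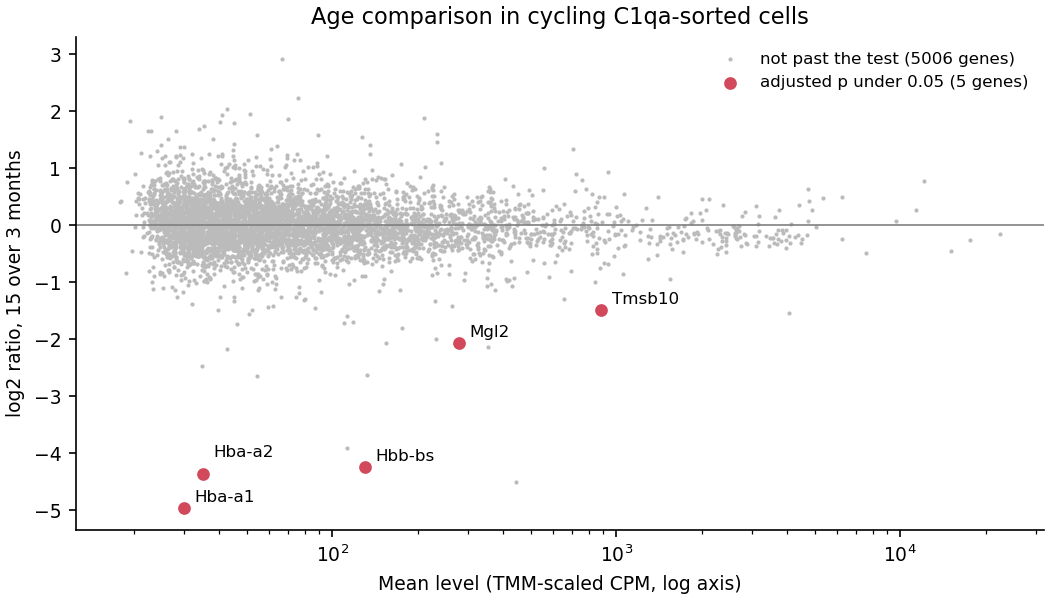
Each point is a gene tested in cycling C1qa-sorted cells, at its mean level (TMM-scaled CPM, log axis) and its log2 ratio, 15 over 3 months, from 3 pools of each age. The 5 genes past the test are red and lie below 0, from -1.49 for Tmsb10 to -4.96 for Hba-a1.

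The other 3 calls were haemoglobin genes, the red-cell transcripts Hbb-bs, Hba-a1 and Hba-a2. Hbb-bs was 236, 211 and 299 CPM at 3 months and 3.89, 12.6 and 17.2 CPM at 15 months (log2 -4.24 ± 0.30, edgeR adjusted p = 0.00036). Hba-a1 missed the threshold without the first 3-month pool (edgeR adjusted p = 0.0778). Hbb-bs was low at 15 months in non-cycling macrophage-like cells as well, at 7625, 2631 and 4914 CPM against 11.2, 314 and 16.0 CPM. Tmsb10 and Mgl2 were lower at 15 months in the non-cycling cells too, without overlap between ages. Their log2 ratios there were -0.68 ± 0.13 (edgeR adjusted p = 0.173) and -1.33 ± 0.33 (edgeR adjusted p = 0.201). Of the 9595 genes tested in non-cycling cells, 1041 were higher and 1074 lower at 15 months without overlap. Only 3 of the 9595 passed the edgeR test (0.0313%). In cycling macrophage-like cells 0 of 32 tested genes for DNA replication, 0 of 46 for G2 and mitosis and 0 of 21 for chromatin and tubulin passed the edgeR test, with 2, 4 and 1 at an unadjusted p under 0.05. Pcna averaged 135 ± 49.3 CPM in the younger and 136 ± 17.2 CPM in the older pools (SD, n = 3), and the ages overlapped.

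Among the lists, that of the nucleolus and ribosome assembly leaned one way. All 14 of its tested members had a negative log2 ratio in cycling macrophage-like cells (median -0.48 against -0.00 for all genes tested), but 0 passed the test and 3 did not overlap between ages, where 17.8% of all genes did not. Npm1, a nucleolar chaperone, was 1989, 1475 and 1219 CPM at 3 months and 1124, 892 and 1074 CPM at 15 months (log2 -0.60 ± 0.20, edgeR adjusted p = 0.326). In non-cycling macrophage-like cells 13 of 15 members were negative (median -0.21). Of 20 tested cyclins, kinases and inhibitors 11 were positive and 0 passed. Ccnd1, the D-type cyclin induced by growth signals, was 294, 124 and 192 CPM at 3 months and 101, 102 and 95.8 CPM at 15 months without overlap (log2 -1.04 ± 0.28, adjusted p = 0.257). Csf1r was 282 ± 62.7 and 438 ± 64.9 CPM, without overlap (log2 0.63 ± 0.21, adjusted p = 0.322), and Cdkn1a 464 ± 196 and 239 ± 72.6 CPM, without overlap (log2 -0.93 ± 0.31, adjusted p = 0.325).

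Whether age acted differently on cycling and non-cycling macrophage-like cells was tested as an interaction with the pool as a block. Of 9657 genes 4 passed (0.0414%): Gzma, Atp6v0d2, Lpl and Lgals3. Without the second pool of either age 1 gene passed, and 0 did with a lineage marker at 1 UMI or with marker panels. None of the state genes named above did, with log2 differences between the age effects of 0.14 ± 0.33 for Cdkn1a, 0.50 ± 0.18 for Csf1r and 1.32 ± 0.73 for Spp1 (edgeR adjusted p = 1, 0.873 and 0.951).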

How the data were processed

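The authors deposited filtered matrices of raw, unscaled UMI counts per gene and hashtag. Versions conflict: cellranger 4.0.0 per the file headers, but Cell Ranger 7.0.0 (with mm10 and FastQC 0.11.4) per the submitters' processing notes. Hashtag counts assigned cells to pools, as the rule in the report states. The 3-month library held 3135 barcodes and 27277073 gene UMIs, the 15-month library 4939 and 45060166. The features table lists 31053 genes, and 35 symbols belong to several IDs. Doublets were scored with Scrublet in scanpy 1.11.5, whose automatic threshold marked 0 and 1 barcodes and so had not worked; no barcode was removed by it.

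Counts were summed by pool and tested with edgeR 4.0.16 in R 4.3.3 (filterByExpr, TMM, quasi-likelihood test, Benjamini-Hochberg adjustment over all genes, threshold 0.05). On simulated counts for cycling macrophage-like cells (5011 genes) 98 of 100 genes changed 4-fold and 36 of 100 changed 2-fold were called, with 8 false calls. Shares were compared with two-sided exact permutation tests in scipy 1.17.1. Wilson intervals (95%) and the limit for a count of 0 (3 counts) cover counting error only. Chi-square over degrees of freedom between pools of an age was 2.93 to 6.75 in cycling cells, so no pools were duplicates.

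Alternatives were DESeq2 1.42.0, other filters, thresholds and sorts, thinning, and leaving out pools. Promoters on chromosome 18 were left out, and 1 marker gene is not reported here. The members, lists and tests were chosen with earlier results of these data known. Named genes are up to 8 a direction past a test that average 50 CPM or more and do not overlap, the 20 highest and 10 lowest ratios in macrophage-like cells, 6 leading genes of each sort at 200 CPM or more, up to 6 highest members of each list, and 9 macrophage state genes; other named genes were chosen after their values were seen.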

Additional observations from a re-analysis of the deposited data

Results flagged for a closer look

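In macrophage-like cells (C1qa sort), 4 genes had an age effect that differed between cycling and non-cycling cells (edgeR interaction test, adjusted p = 0.0428 for each). For Gzma, an NK cell protease gene, the fitted log2 difference was 14.04, but it is no measure of size because the 3-month cycling cells held 0 UMIs. It rested on few cells: 338 UMIs in the third 15-month pool, 337 of them in 1 cell, and 104 in the second, 98 of them in 1 cell, while non-cycling cells of the third 3-month pool held 144. For Atp6v0d2, a proton pump subunit gene of osteoclasts and macrophages, the log2 difference was -3.15, with 103 of the 142 UMIs of the second 3-month pool's cycling cells in 1 cell. For Lpl, lipoprotein lipase, it was -1.31: cycling cells had 1449, 922 and 222 CPM at 3 months and 465, 283 and 357 CPM at 15 months, and non-cycling cells 468, 432 and 113 CPM, and 386, 314 and 416 CPM. For Lgals3, galectin 3, it was -0.84: cycling cells had 5898, 9001 and 1903 CPM, and 2560, 1450 and 2045 CPM, and non-cycling cells 4156, 5519 and 1508 CPM, and 2877, 2013 and 2483 CPM. Lpl and Lgals3 missed the threshold in 8 of 13 alternatives each, among them leaving out the first or the second 3-month pool, or the second or the third 15-month pool. Atp6v0d2 missed it in 4 of 13, among them without the second pool of either age, and Gzma in 2 of the 11 that tested it, 1 of them without the third 3-month pool.

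Barcodes that passed the quality limits but not the hashtag rule were not analysed. At 15 months 27 of these 247 met the cycling rule (10.9%), and at 3 months 2 of 51 (3.92%).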

How the results depend on the processing

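The gap between ages in the cycling share kept its sign under all 12 alternatives over all cells (0.920 to 2.04 points, 0.430 to 2.73 without single pools) and under all 14 within the C1qa sort (1.32 to 4.39, 1.79 to 5.17 without single pools), the Cd209a sort (5.25 to 16.1, 9.19 to 16.5 without single pools) and the Xcr1 sort (22.9 to 35.4 without single pools), where marker panels gave 15.4 points. The gap in the share of C1qa-sorted cells among cycling cells also kept its sign under all 14 (2.33 to 8.49, 0.790 to 9.85 without single pools). In cycling cells 27 genes passed with DESeq2, 188 with every gene with a UMI and 1 with a minimum of 2 UMIs, and without single pools 0 to 12. In cycling C1qa-sorted cells 12, 214 and 2 genes passed with DESeq2, every gene with a UMI and a mean of at least 50 CPM, and without single pools 3 to 26, the highest without the third 3-month pool. Of the interaction, 0 genes passed with a lineage marker at 1 UMI and 0 with marker panels, and without single pools 1 to 5. The cause was not tested. The replicate block gave 0 and 5 calls, as without it; same-numbered pools did not deviate together in cycling C1qa-sorted cells (correlations -0.00297, -0.205 and 0.130), so the numbers were not taken as pairs. Removing called doublets was not run, since the caller did not work; removing the highest 5% of scores was added after seeing the data. The Xcr1 shares rest on pools of 2 to 63 cells.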
